A study of Mus musculus with 6 samples.

Results

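Circular RNAs whose back-spliced ends lie more than 100 kb apart on the mouse genome were examined in the cortex of Control and temporal lobe epilepsy (TLE) mice. A circRNA was taken as long-range when the deposited table gave it 1 host gene and the distance from its first to its last genomic base, the span, was over 100000 bases. By this rule 405 of the 11171 circRNAs in the table were long-range. They were compared with the 9868 circRNAs that also had 1 host but a span of at most 100000 bases, called shorter circles here, so that long-range circles made up 3.94% of one-host circles. The 898 rows without a single host were in neither class.

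The study compared 3 Control mice with 3 TLE mice, 1 cortex library per mouse, to learn which circRNAs change early in epileptogenesis. All were C57BL/6 males of 6 weeks (C57BL/6J in the study's methods). TLE mice were given scopolamine methyl bromide and then pilocarpine, and their Status Epilepticus (SE) was stopped with diazepam. Their cortex was collected 24 h after SE. Control mice received saline injections, so the agents given around SE differ between the groups along with SE itself and cannot be told apart from it. Whole cortex was used, and in such bulk tissue fewer cells of a type and less circRNA per cell cannot be told apart.

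A circRNA forms when the spliceosome joins the 3′ end of an exon, the splice donor, to the 5′ end of the same or an earlier exon, the acceptor. The exons lying between those ends are then closed into a ring, usually without the introns, so a ring of ordinary length can come from a stretch of genome that is mostly intron. Neuronal genes include some of the longest in the genome, and brain is known as a tissue rich in circRNA. Circles often begin at the second exon of their host, because the first exon has no splice acceptor.

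The junctions themselves show what was counted. Coding junctions of abundant long-range circles and that of the widest circle with a coding junction are printed 5′ to 3′, with the last 15 bases of the donor exon in lower case and the first 15 bases of the acceptor exon in capitals (GENCODE M21 transcripts, GRCm38).
Ntrk3 mmu_circ_0009579, exon 12 to exon 5: acaagccagacacatGAGACTGGAGCAGAA
Msra mmu_circ_0002594, exon 10 to exon 7: gaagaataccaaaagCCAAACACCATGTCA
Galntl6 mmu_circ_0009944, exon 5 to exon 3: acttcagtgatagagACATTTCCACTGGGC
Stk39 mmu_circ_0006314, exon 16 to exon 2: atgatgtagttatagGCAGCGGAGCAACTG
Stk39 mmu_circ_0006317, exon 14 to exon 2: tgttttaagattaagGCAGCGGAGCAACTG
Nfib mmu_circ_0007533, exon 8 to exon 2: cctcaaacgagccagGATGAATTCCACCCA
Cdkal1 mmu_circ_0001900, exon 15 to exon 10: tcaggtttgacaaagAGGGTGTTTGTGAGA
Both Stk39 circles share their acceptor bases and differ in the donor.

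Values are in SRPBM, junction reads scaled to the mapped reads of the library. Within each library every value was a whole multiple of 1 step to within 0.1 step, and 1 step was taken as 1 junction read. The libraries held 32504 to 56516 junction reads in all, and the lowest listed value was 2 reads. A floor of 3 reads per library came to between 25.6 and 31.0 SRPBM and covers counting error only. SRPBM counts reads per junction, so levels of different circles are compared per junction and not per length. Of the 5 neuronal marker genes looked for as hosts, 4 gave circles (60 circles, 3435 to 3945 SRPBM per Control library and 3677 to 5088 per TLE library). Astrocyte and oligodendrocyte markers gave 2 circles each, at most 34.6 SRPBM in any library, and the 5 microglial and 5 endothelial markers gave none.

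The long-range circles had a median span of 131249 bases (quartiles 113586 and 155043). Of these, 285 spanned at most 150 kb, 120 spanned more and 11 were over 190 kb. Spans over 200000 bases occurred in 0 of the 11171 rows. CIRI, the program that called the circles, has a setting for the maximum span, whose value is not given in the sources used here. Just inside the 100000-base limit lay a Nav3 circle (neuron navigator 3, mmu_circ_0000047, 100320 bases, 9 reads) and an Arhgap10 circle (a GTPase-activating protein, mmu_circ_0010020, 100398 bases, 6 reads). Just outside it lay circles of Erbb4, the neuregulin receptor (mmu_circ_0005412, 99600 bases, 3 reads), and Grm5, a metabotropic glutamate receptor (mmu_circ_0009610, 99996 bases, 4 reads).

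Among the 5 widest circles, the Tenm4 circle (a teneurin adhesion protein, mmu_circ_0009642, 198392 bases) came from 2 reads in Control 1 alone. The Cdkal1 circle printed above (a tRNA-modifying enzyme, chr13:29354630-29552395, 197766 bases) came from 4 reads in TLE 1 alone. Cep112, a centrosomal protein gene, gave a pair with 1 shared end, mmu_circ_0000595 (195792 bases) and mmu_circ_0000594 (195766 bases), with means of 21.0 and 43.9 SRPBM. Width alone thus went with anything from 2 reads to detection in all 6 libraries, as for mmu_circ_0000594.

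Both ends matched annotated exon boundaries of the host in 348 of 405 long-range circles (85.9%, Wilson 95% interval 82.2 to 89.0) and in 91.1% of shorter circles. On 1 annotated transcript of the host, both ends could be placed for 344 long-range circles. What follows on exons and introns reads that annotation, since only the junction was sequenced and the exons inside each ring were not measured. The placed circles enclosed a median of 7 exons, against 4 in shorter circles. Their summed exon length had a median of 939.5 nucleotides, against 604. The share of a circle's span filled by exons had a median of 0.713% in long-range and 5.28% in shorter circles. In genome coordinates the classes differ by construction, while summed exon length overlapped widely, with quartiles of 577 and 1523 nucleotides in long-range circles and 429 and 960 in shorter ones.

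**Figure D1:**
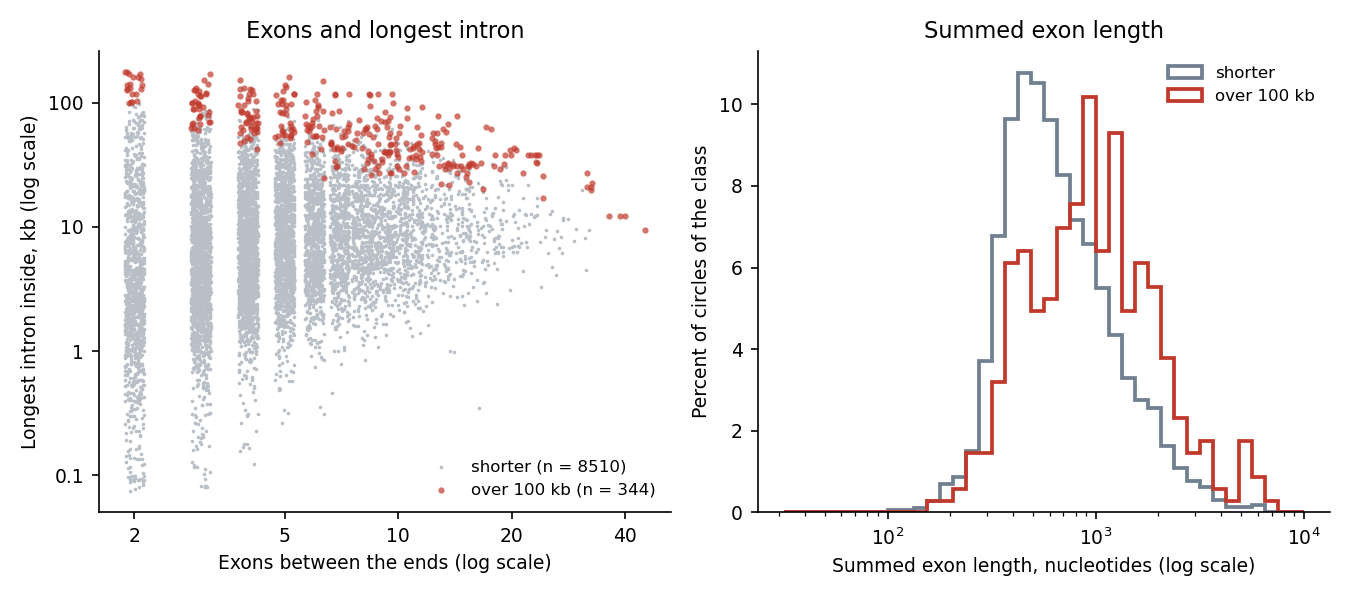
Left, exons enclosed (log scale, jittered sideways) against the longest enclosed intron in kb (log scale), 1 point per circle placed on a transcript and holding an intron, in red for spans over 100 kb and grey for shorter spans. Right, summed exon length in nucleotides (log scale) as the percent of circles in each class. Red points run along the upper edge, from few exons with an intron over 100 kb to 44 exons with no intron over 9494 bases, and the length curves overlap with medians of 939.5 and 604 nucleotides.

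Long-range circles came about in more than 1 layout. A single intron of over 100 kb lay inside 66 of the 344 placed circles (19.2%), and an intron of over 50 kb inside 208 (60.5%). At the other end, 95 of 344 (27.6%) enclosed more than 10 exons, against 6.76% of shorter circles. None was a single-exon circle (0 of 344, against 4.09% of shorter circles). The span rule fixes this, since such a circle would need an exon of over 100 kb. Summed exon length in long-range circles reached at most 7181 nucleotides. The longest intron took a median of 44.4% of the span in long-range circles and 49.4% in shorter ones. Introns next to the junction were also long: the median upstream intron measured 35678 bases and the downstream one 37989, against 9908 and 8137.5 for shorter circles. Among shorter circles of the hosts that gave a long-range circle, the gap was smaller, at 19906 and 22602 bases. Median host length was 439821 bases per long-range circle and 123296 per shorter circle.

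The acceptor lay at exon 2 of the placed transcript in 137 of 344 long-range circles (39.8%, Wilson 34.8 to 45.1). The share was 27.4% among all shorter circles, 20.4% among shorter circles of hosts over 100 kb, and 15.4% among shorter circles of the very hosts that gave a long-range circle. Within each library, the share among detected long-range circles exceeded that among detected shorter circles by 8.82 to 14.2 percentage points, on average 11.4 ± 2.14 (SD, n = 6 libraries). The difference was positive in 6 of 6 libraries (exact sign-flip permutation test, two-sided, p = 0.03125, the smallest that 6 libraries allow). This comparison was chosen after the shares had been seen, and the libraries share most of the abundant circles, so the test speaks for these libraries and not for other circles. First exon and span are also read from the same coordinates, so the span rule bears on where a circle can start. How far it raises the exon 2 and 5′ UTR shares was not tested. By position in the host mRNA, 17 placed circles (4.94%) held 5′ UTR only, against 0.417% of shorter circles, and 77 (22.4%) held 5′ UTR and coding sequence, against 14.5%. A further 238 (69.2%) were coding throughout, against 80.1%.

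Most long-range circles shared an end with a shorter circle of their host. Their acceptor was also used by a shorter circle in 262 of 405 (64.7%), their donor in 211 (52.1%), and both of their ends, though not in the same circle, in 144 (35.6%). In 76 (18.8%) neither end was seen in a shorter circle.

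Their hosts were 209 of the 3469 genes that gave any one-host circle (6.02%), or 14.5% of the 1446 hosts over 100 kb. Of these hosts, 207 were protein-coding, and 115 gave 1 long-range circle each. The 11 hosts with 5 or more held 74 of the 405. Shorter circles were also listed for 195 of the 209 hosts, and in 36 of those 195 the most abundant circle of the gene was a long-range one. The remaining 14 hosts gave long-range circles alone. Circles lay on 20 chromosomes, with 4 circles on X.

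Dgki, the gene of diacylglycerol kinase iota, gave the most, 13 long-range circles beside 31 shorter ones. Its highest, mmu_circ_0008671, enclosed exons 6 to 22 and stood at 94.0, 74.4 and 43.1 SRPBM in Control 1 to 3 and 51.6, 43.8 and 69.2 in TLE 1 to 3. The groups overlapped, and the mean of 62.7 SRPBM was well under the 676 SRPBM of the gene's leading shorter circle, exons 9 to 15. Nbea, coding for neurobeachin, a scaffold in membrane traffic to synapses, followed with 10 circles from 6 acceptors and a highest mean of 43.7 SRPBM. Rims2, an active-zone protein of vesicle release, gave 7, none with a mean above 25.6 SRPBM, while its leading shorter circle reached 1287. Lrrc7, the postsynaptic scaffold densin, gave 6. In these hosts the long-range circles were a minor product of many, at 11.5% of the host's SRPBM in Dgki, 6.27% in Nbea, 2.96% in Rims2 and 12.4% in Lrrc7.

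Atxn1 differed from these hosts. Coding for ataxin-1, a nuclear protein that regulates transcription and RNA, it gave 5 long-range circles that took 97.5% of its circular SRPBM. Per library the Atxn1 share ran from 96.2% to 98.6%, at 97.7 ± 0.933% in Control and 97.3 ± 0.977% in TLE (SD, n = 3 each; exact permutation test, two-sided, p = 0.6, where 3 against 3 cannot go below 0.1).

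Atxn1 also held the most abundant long-range circle, mmu_circ_0001955 (chr13:45795509-45956575), exons 2 to 4 in the 5′ UTR, with 379 nucleotides of exon across 161067 bases and an intron of 103998 bases inside. It was listed at 1350, 1422 and 1585 SRPBM in Control 1 to 3 and at 1250, 1736 and 2042 in TLE 1 to 3. TLE values lay on both sides of the Control range, and the mean of 1564 gave the circle rank 9 among all one-host circles. Its partner mmu_circ_0001954 had the same donor and an acceptor 3 bases further in, at 94.0, 121 and 60.3 SRPBM in Control and 114, 175 and 216 in TLE. The first 3 bases of exon 2 end in AG, the dinucleotide of a splice acceptor, and 15 of 344 placed circles had AG at bases 2 and 3 of their first exon. The inner acceptor's share of the pair was 6.51%, 7.83% and 3.66% in Control and 8.33%, 9.17% and 9.58% in TLE. All TLE values were above all Control values, by 3.03 percentage points on average (6.00 ± 2.13 against 9.03 ± 0.635, SD, n = 3; exact permutation test, two-sided, p = 0.1, the smallest possible). This share was looked at after its values were known, and with 3 mice per group no p under 0.05 was possible. Another Atxn1 circle, exons 2 and 3 (mmu_circ_0001956), averaged 107 SRPBM.

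Fmn1, a formin that nucleates actin filaments, gave the other 2 pairs of acceptors 3 bases apart. Of its major pair, mmu_circ_0005581 averaged 103 SRPBM and mmu_circ_0005585 averaged 74.5, so in that pair neither acceptor dominated as in Atxn1. The minor pair was uneven and scarce, with mmu_circ_0005580 at 23.1 SRPBM (16 reads) and mmu_circ_0005584 at 2.88 (2 reads). No circle of these Fmn1 pairs had both ends on annotated exon boundaries.

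Other hosts among the 10 most abundant fell between these patterns. Ntrk3, the receptor for neurotrophin-3, gave mmu_circ_0009579 (chr7:78356027-78462942) at 231, 232 and 155 SRPBM in Control and 165, 114 and 277 in TLE. A shorter circle from the same acceptor, ending at exon 11, had a like mean of 172 against 196 SRPBM. Msra, methionine sulfoxide reductase A, which repairs oxidised methionine, gave mmu_circ_0002594 (chr14:64210428-64313755) at 154, 186 and 207 in Control and 41.3, 281 and 208 in TLE. TLE 1 stood far below the other 5 libraries for this circle. Its leading shorter partner, exons 8 to 10, averaged 52.7 SRPBM. Galntl6, of the polypeptide GalNAc-transferase family, gave mmu_circ_0009944 (chr8:58427700-58536014) at 85.5, 195 and 172 in Control and 134, 87.7 and 112 in TLE, above its leading shorter circle (15.9 SRPBM). Here the groups overlapped fully.

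Stk39, a kinase that regulates cation-chloride cotransporters, went the other way. Its mmu_circ_0006314 (chr2:68263235-68410141, exons 2 to 16) was listed at 179, 102 and 103 SRPBM in Control and 93.0, 158 and 130 in TLE. From the same acceptor, the 19228-base circle of exons 2 to 5 (mmu_circ_0006325) averaged 1024 SRPBM, against 128 for the long-range one. Long-range circles made up 8.28% to 13.4% of Stk39 SRPBM by library.

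**Figure D2:**
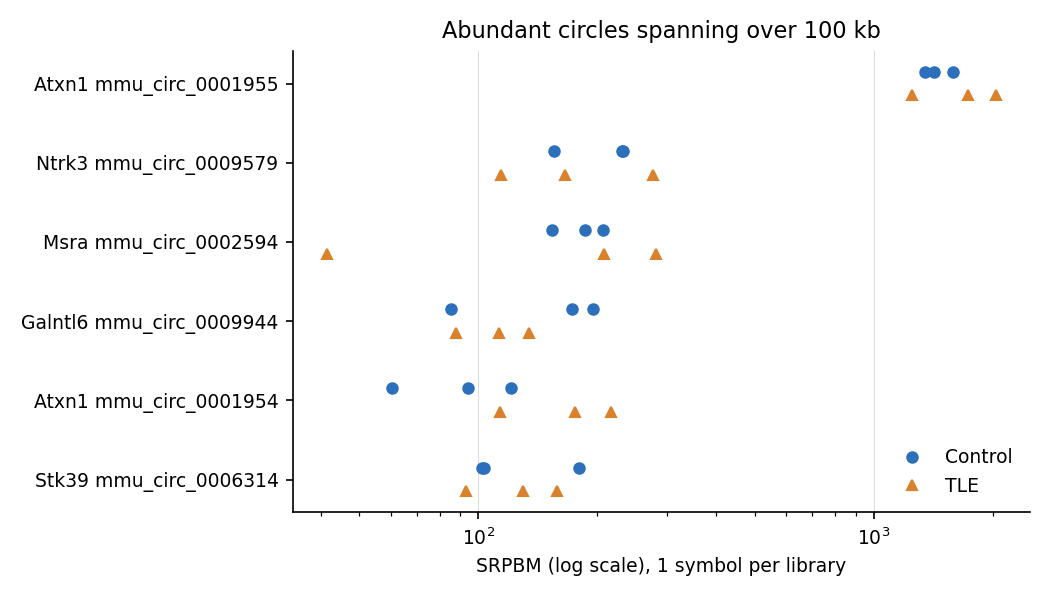
SRPBM (log scale) of 6 circles among the 10 most abundant long-range ones, 1 symbol per library, circles for the 3 Control and triangles for the 3 TLE libraries. Control and TLE symbols overlap for each of the 6, least for Atxn1 mmu_circ_0001954, whose TLE values of 114 to 216 reach above the Control values of 60.3 to 121.

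Abundance was concentrated. The top circle held 16.5% of long-range SRPBM and the top 10, from 6 hosts, held 40.9%. All 10 were found in 6 of 6 libraries, and 6 of the 10 began at exon 2. In all, 14 long-range circles averaged 100 SRPBM or more, and 3 were among the 100 most abundant one-host circles in the table.

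The rest were scarce. A total of 295 of 405 (72.8%) had at most 10 reads over the 6 libraries, against 66.7% of shorter circles, and 6 (1.48%) had 100 reads or more, against 3.79%. Detection in a single library was seen for 195 (48.1%, Wilson 43.3 to 53.0), against 44.0% of shorter circles, and detection in all 6 for 37 (9.14%, 6.70 to 12.3), against 14.8%. Median reads were 5 in both classes. At 6 to 10 reads in all, 41.2% of long-range and 43.0% of shorter circles were found in at least 3 libraries.

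Within libraries the mean log2 SRPBM of detected long-range circles was below that of detected shorter circles by 0.19 to 0.34, on average by 0.24 ± 0.05 on the log2 scale (SD, n = 6), in 6 of 6 libraries (exact sign-flip permutation test, two-sided, p = 0.03125, the smallest possible). Against shorter circles of the same hosts only, the difference was -0.46, in the same direction and with the same p. The medians gave -0.35, with no difference in TLE 2 (exact permutation test, p = 0.0625). Only circles with a listed value enter here, so the size of the gap also rests on the 2-read minimum of the table. As for exon 2, the libraries share most of the abundant circles, so these tests speak for these libraries and not for other circles.

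The first question between the groups was whether TLE cortex held more or fewer long-range circles. Control 1 to 3 held 157, 142 and 159 and TLE 1 to 3 held 140, 172 and 186, following the junction reads of each library. As a share of the one-host circles detected these were 3.62%, 3.54% and 3.65% in Control and 3.73%, 3.62% and 3.33% in TLE. The groups overlapped (3.60 ± 0.0532% against 3.56 ± 0.205%, SD, n = 3; difference -0.0467 percentage points, exact permutation test, two-sided, p = 0.8). TLE 3 was lowest and also the deepest library, and without it the difference was 0.0673 percentage points. Brought by calculation to the read number of the shallowest library, its share was 3.14%, against 3.51% to 3.73% in the other 5.

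Long-range circles took 3.01%, 3.04% and 3.05% of one-host SRPBM in Control and 2.77%, 3.13% and 2.78% in TLE. The means were 3.04 ± 0.0217% and 2.89 ± 0.204% (SD, n = 3), a difference of -0.143 percentage points within the spread of TLE (exact permutation test, two-sided, p = 0.4). TLE libraries spread about the Control values, with 2 below and 1 above all of them.

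**Figure D3:**
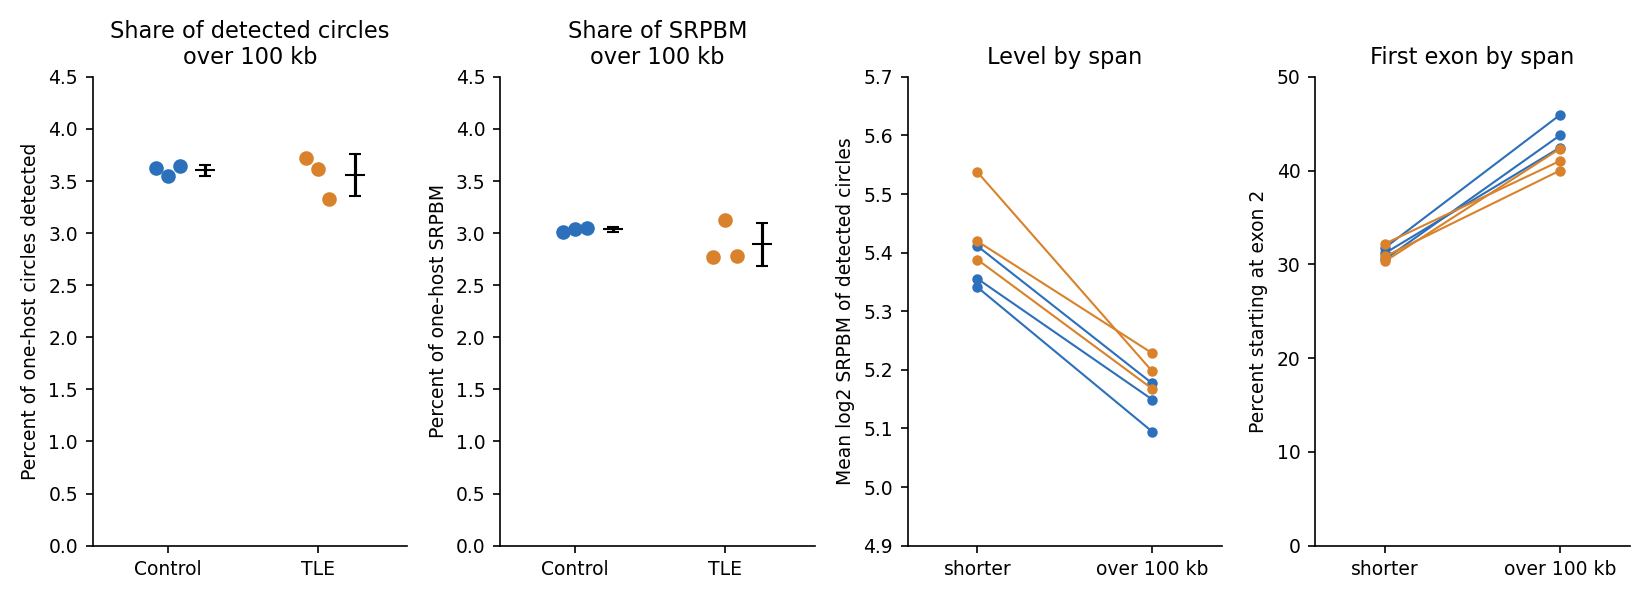
By library, the percent of detected one-host circles and of one-host SRPBM that was long-range in Control (blue) and TLE (orange), with mean and SD beside, and, for each library as a line, the mean log2 SRPBM and the percent of circles starting at exon 2 in shorter and long-range circles (the level axis does not start at 0). Groups overlap in both left panels, and all 6 lines fall in level and rise in exon 2 starts.

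By presence alone, 172 of 405 long-range circles (42.5%) were listed in both groups, 132 in TLE libraries only and 101 in Control libraries only. For shorter circles the shares were 48.4%, 29.9% and 21.6%. A circle in all 3 TLE libraries and in no Control library occurred 1 time among the 405 (0.247%), in Gli3, against 0.719% of shorter circles. The converse occurred 0 times, against 0.345%.

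For single circles, limma was fitted on log2(SRPBM + 17.1) over the 4271 circRNAs above 0 in at least 3 libraries, and a call needed a log2 fold change of 1.5 and an unadjusted p under 0.05. Of the 405 long-range circles, 138 entered this fit, and 1 was called higher in TLE (0.725%), beside 1.26% of all circRNAs tested, while 0 were called lower, beside 0.304%. An unadjusted p under 0.05 was reached by 5 of the 138 (3.62%), beside 5.2% of all tested. After Benjamini-Hochberg adjustment by limma, 0 of all 4271 were under 0.05. Median log2 fold change was 0.10 in the 138 and 0.17 over all tested. That shift of all circRNAs moved with the scaling: with each library rescaled to the same total the medians were -0.06 and 0.01, and the calls became 0 higher and 3 lower (2.17%), beside 0.866% and 0.585% of all tested. Circles of Rere and Zfp407 were among those 3, and directions near 0 should be read relative to this shift. The lowest log2 fold change of the 138 was -1.44 in the main fit, in a circle of a cell adhesion gene, and -1.57 with totals rescaled.

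**Figure D4:**
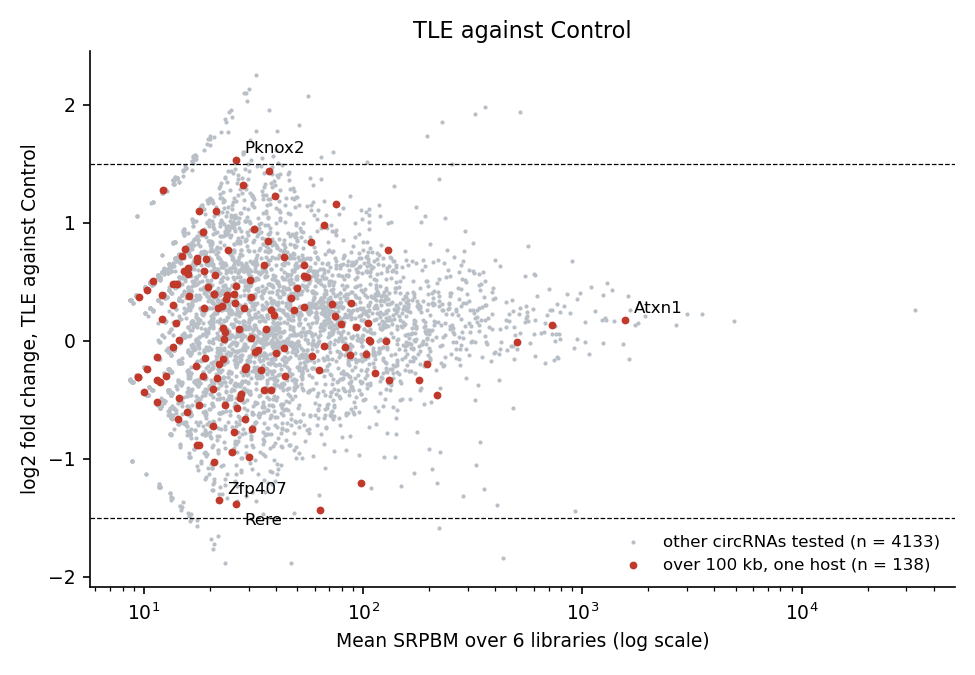
Mean SRPBM over 6 libraries (log scale) against the log2 fold change of TLE over Control for the 138 long-range circles tested (red) and the other circRNAs tested (grey), with dashed lines at 1.5 and -1.5. One red point, Pknox2, lies past a line, and the abundant Atxn1 point lies near 0.

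The circle called higher was mmu_circ_0010430 of Pknox2 (chr9:36936321-37083276), a homeodomain transcription factor gene. It was listed at 0, 18.6 and 0 SRPBM in Control 1 to 3 and at 51.6, 43.8 and 43.3 in TLE 1 to 3. These were 2 reads in Control against 15 in TLE, a ratio per depth of 7.83 (exact counting interval 1.82 to 70.5). This interval and those below pool the reads of the 3 mice per group. They cover counting error only, not the spread between mice. The circles were also picked by these same values, so an interval that leaves out 1 is no separate support. For mmu_circ_0010430 the log2 fold change was 1.53 ± 0.62 (SE), past the unadjusted limit, and the adjusted p of limma was 0.838. The call was lost with Control 1, Control 3 or TLE 1 left out (log2 fold change 1.36, 1.36 and 1.47) and with totals rescaled (1.43). The circle began at exon 2 and enclosed 5 exons. A second circle from the same acceptor, mmu_circ_0010431, ended 1 exon earlier and stood at 42.7, 18.6 and 25.8 in Control and 51.6, 43.8 and 77.9 in TLE, also without overlap.

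In 6 of the 138 (4.35%) every TLE value was above every Control value, beside 8.94% of all tested, and in 4 (2.9%) every TLE value was below, beside 2.11%. Gli3, the zinc-finger transcription factor of the Hedgehog pathway, gave mmu_circ_0001868 (chr13:15478000-15662530), at 0 in all 3 Control libraries and 20.7, 26.3 and 26.0 SRPBM in TLE. With 2 or 3 reads a library, both groups are at or under the floor and no fold is given. Myo9a, an unconventional myosin, gave mmu_circ_0010575 of 37 exons at 17.1, 0 and 0 in Control and 20.7, 26.3 and 43.3 in TLE (2 against 10 reads, ratio 5.22, exact interval 1.11 to 49.0). Its log2 fold change of 1.10 did not pass the unadjusted limit in limma.

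On the lower side, Rere, a transcriptional co-regulator of the atrophin family, gave mmu_circ_0007299 (chr4:150406196-150534945) at 42.7, 37.2 and 51.7 SRPBM in Control and 0, 0 and 26.0 in TLE. That is 15 reads against 3, a ratio of 4.79 (exact interval 1.36 to 25.8), and the log2 fold change of -1.38 ± 0.64 (SE) passed the unadjusted limit but missed the size needed for a call, with an adjusted p of 0.890 by limma. Zfp407, a zinc-finger protein gene, gave mmu_circ_0004293 at 34.2, 46.5 and 34.5 in Control and 0, 0 and 17.3 in TLE (13 reads against 2, ratio 6.23, exact interval 1.41 to 56.8). Dab1, the adaptor of reelin signalling, gave mmu_circ_0007023 at 42.7, 37.2 and 51.7 in Control and 31.0, 17.5 and 0 in TLE (15 reads against 5, ratio 2.87, exact interval 0.993 to 10.1). This interval includes 1, and the log2 fold change of -0.99 did not pass the unadjusted limit.

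None of the 10 most abundant circles had an unadjusted limma p under 0.05, and their log2 fold changes ran from -0.46 to 0.77 (Atxn1 mmu_circ_0001954). The abundant circles, which carry the smallest counting error, therefore showed no change that passed the test.

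By role of the host, long-range circles were spread over all 9 gene lists used. Most circle-forming hosts on each list were over 100 kb, such as 43 of 48 transcription and RNA regulators and 51 of 53 adhesion genes. Of all hosts over 100 kb, 14.5% gave a long-range circle. The host shares below were not tested against that share. The 1 circle called at the study's threshold, of Pknox2, was on no list, although its host codes for a transcription factor. The lists therefore held no called circle, where 1.26% of all circRNAs tested were called higher and 0.304% lower. Among transcription and RNA regulators, 21 of 48 circle-forming hosts (43.8%) gave 34 long-range circles, led by 2 of Nfib, a nuclear factor I gene, at 105 and 71.7 SRPBM. Nfib mmu_circ_0007533 was listed at 59.8, 112 and 112 in Control and 196, 61.4 and 86.5 in TLE, without separation. The acceptor was at exon 2 in 15 of 33 placed circles of this list, and the 15 tested had a median log2 fold change of 0.31.

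Synaptic scaffold and vesicle release genes gave the most circles, 48 from 15 of 37 hosts (40.5%), led by Erc2, an active-zone protein, at 97.4 SRPBM (mmu_circ_0002439, listed at 0 in TLE 3 and at 214 in Control 1), and Nbea at 43.7. Exon 2 was the acceptor in 8 of 41 placed circles, and the median log2 fold change of the 11 tested was -0.06. Cell adhesion genes gave 29 circles from 13 of 53 hosts, led by Tenm2 at 79.5 SRPBM. Only 1 of these 29 began at exon 2, and the 8 tested had log2 fold changes from -1.44 to 1.44, with a median of 0.30. Second messenger enzymes gave 13 circles, all from Dgki, with 0 of 12 placed at exon 2 and a median of 0.04 over the 8 tested.

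Receptors and ion channels, with 65 circle-forming hosts, gave 13 circles from 12 of them, led by Kcnt2, a sodium-activated potassium channel, at 48.4 SRPBM and Cacna1d, a calcium channel subunit, at 14.4. Axon guidance genes gave 13 from 7 of 23 hosts, led by Nell2 at 15.8 and Epha6 at 14.4, and the 3 tested had a median of -0.49. Cytoskeletal genes gave 12 from 5 of 30, led by the major Fmn1 pair named above, with a median of 0.01 over 7 tested. Receptor phosphatases and kinases gave 3 from 2 of 19, with the Ntrk3 circle at 196 SRPBM and its next at 4.65. Genes known as very long fragile-site genes gave 13 from 5 of 10, among them Magi2, a scaffold protein, at 28.3 SRPBM, and 3 were tested. The lists overlap in part, and 129 hosts with 230 circles, among them those of Msra, Stk39 and Pknox2, were on none.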

How the data were processed

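Cortical RNA from 3 Control and 3 TLE mice was depleted of ribosomal RNA and sequenced as paired-end directional libraries. The authors called circRNAs with CIRI on BWA-MEM alignments (build mm10 in the submitters' processing notes, which also name DESeq2) and deposited each circRNA's expression as SRPBM, a normalised signal. The 6 deposited copies of the table were identical, and 1 was read. Depth per library was read from the SRPBM steps, as junction reads, and precision was limited by these reads.

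Hosts were matched by Ensembl identifier to GENCODE M21 (GRCm38), 3467 of 3469. Exon numbers are of the transcript holding both ends that has the most exons. TLE and Control were compared with limma 3.58.1 (R 4.3.3; trend, two-sided) on log2(SRPBM + 17.0914), the smallest value above 0, over all circRNAs above 0 in at least 3 libraries, and values per library with exact permutation tests (scipy 1.17.1). Fold changes on this scale understate those of scarce circles. The limma step was tested on simulated data, with large changes put into abundant circles only and no spread beyond counting error. That simulation does not cover scarce circles or the spread between mice. The threshold of 1.5 and 0.05 is that of the study's methods. Each mouse gave 1 library, so p-values of TLE against Control rest on the spread between these libraries, counting error included. In limma that spread is also drawn from all circRNAs tested. The sign-flip p-values compare circle classes within libraries and measure no spread between mice of a group.

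Named were the 10 most abundant and 5 widest long-range circles, all called circles, the 3 highest and 3 lowest log2 fold changes among circles not overlapping between groups, the 6 hosts with most circles, the leading shorter circle of the abundant hosts, the neighbours of the span limit and the 2 leading circles of each role list. Fmn1, Pknox2 mmu_circ_0010431, Nfib and the second Stk39 circle were in part chosen after their values were seen. A few circles that this rule names are not reported here. Junctions in UTRs were passed over for the next coding ones. The members and the gene lists were chosen with earlier results of these data known. Alternatives covered the pseudocount, filters, scaling, variance prior, replicate block, span limit, annotation and each library left out.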

Additional observations from a re-analysis of the deposited data

How the results depend on the processing

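Long-range circles called higher and lower in TLE numbered 1 and 0. They became 2 and 2 with a pseudocount of 8.55 SRPBM, 0 and 3 with totals rescaled, 3 and 2 at a log2 fold change of 1, and 11 and 2 of 550 tested with the span limit at 50000 bases. Shares called over all circRNAs were worked out for the main fit (1.26% higher, 0.304% lower) and the rescaled fit (0.866% and 0.585%) only. Counts at the other settings, here and below, show how far the calls moved. They do not compare long-range circles with all circRNAs. Leaving out each library in turn gave 1 to 2 higher (2 without Control 1, Control 2, Control 3 or TLE 2) and 0 to 2 lower (1 without Control 1, 2 without TLE 2 or TLE 3). A pseudocount of 1 SRPBM, no filter, a filter at the median level, no variance trend and exon-boundary circles only each gave 1 and 0. With the pseudocount of 1 SRPBM, however, the call was lost by Pknox2 mmu_circ_0010430 and made for Gli3 mmu_circ_0001868. That Gli3 circle is at or under the floor in both groups, so its fold there rests on the pseudocount and is not given. The share of detected circles that was long-range (TLE minus Control, -0.0467 percentage points) turned to 0.253 at a span limit of 50000 bases and to 0.0673 without TLE replicate 3, and ran from -0.131 to 0.0673 as libraries were left out. It was -0.314 counting only circles with at least 3 junction reads in the library, -0.108 over circles in at least 3 libraries, -0.113 over exon-boundary circles and -0.107 at equal read numbers. The SRPBM share (-0.143) turned to 0.0496 at 50000 bases and ran from -0.261 to -0.0817 as libraries were left out, where the exact permutation p cannot go below 0.1 in any of these designs and so says nothing about stability. The p of 0.1 without TLE 2 is that smallest value. Long-range circles were lower in level by 0.24 on the log2 scale. Without 1 library the difference was -0.25 to -0.22 (exact permutation test, p = 0.0625, the smallest that 5 libraries allow). By medians over all 6 libraries, with TLE 2 at 0, it was -0.35 (exact permutation test, p = 0.0625). The exon 2 difference without 1 library was 10.89 to 11.96 points, again at the smallest possible value. It was 15.9 points on the transcript with the fewest exons and 10.7 on the basic transcript set, both alternatives chosen after seeing the data. For the 6 circles named by non-overlap, 62 of 75 alternatives kept direction and side of the threshold, 8 passed it newly and 5 lost it, all 5 for Pknox2 mmu_circ_0010430 (rescaled totals, a pseudocount of 1, and Control 1, Control 3 or TLE 1 left out; log2 fold changes 1.36 to 4.13). The cause was not tested.

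The replicate numbers are shared by the groups, but deviations of same-numbered libraries correlated only at 0.0103 to 0.0192, so the numbers were not used as pairs, although each library correlated best with its own number. With the replicate block the calls were 1 and 0, the detected share differed by -0.0467 (p = 1) and the SRPBM share by -0.143 (p = 0.5), by exact permutation tests. The block changed no count of calls. A span limit of 200000 bases left no circle and was not run. Count tests were planned but not run. The deposited unit is SRPBM and no value under 2 steps is listed, so reads taken from the steps were used for descriptions, counting intervals and equal read numbers only.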

Other observations

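Of the 503 rows in the table that spanned over 100 kb, 98 had no single host (19.5%, Wilson 95% interval 16.3 to 23.2), and 97 of these had no host listed. Among the 10668 rows of up to 100 kb the number was 800 (7.50%, 7.01 to 8.01). These rows entered no comparison of the report.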
